A study of Mus musculus with 6 samples.

Results

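Collagens are the main structural proteins of the extracellular matrix. Each molecule is a triple helix of alpha chains. In some types, but not all, the chains are encoded by separate genes, and a molecule built from different chains needs them made together. Fibrillar collagens give the heart its tensile network and are made mainly by fibroblasts. Type 4 collagen builds the network of basement membranes around cardiomyocytes and vessels, type 6 forms beaded filaments next to cells, and types 15 and 18 are proteoglycan-like collagens of the basement membrane zone.

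The collagen chains were taken as every gene symbol on the platform made of Col, digits, a and digits, which gave 42 chains among 18193 genes. Where a chain had several probe sets, the brightest one by mean over all 6 arrays stood for it. By structural class there were 11 fibrillar chains (types 1, 2, 3, 5, 11, 24 and 27), 6 basement membrane chains (type 4), 5 chains of type 6, the type 15 and type 18 chains, and 18 others.

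RNA came from hearts of mice 3 months old. The control group held 3 arrays of Des-/- mice, which lack the muscle intermediate filament protein desmin, on the 129SV strain. The other group held 3 arrays of TNFαDes-/- mice, which also lack desmin and overexpress TNF-α in the heart, on a mixed 129SV/C57 background. Both groups therefore lack desmin, no wild-type heart was compared, and transgene and strain cannot be told apart. Which promoter drives the transgene was not stated in the sources read. The labels describe a pool of RNA from 3 hearts per genotype, so arrays of a group may carry the same pool. The p-values then cover just the variation among arrays, which may be technical. In whole-heart RNA, fewer cells of a type and less RNA per cell cannot be told apart.

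All values are log2 expression from RMA, a method that summarises the probes of a probe set into 1 number, and each change is TNFαDes-/- minus Des-/-. The top 1% of log2 values began at 12.27 on Des-/- replicate 1, at 11.69 and 11.75 on the other 2 Des-/- arrays and at 12.26 to 12.31 on the TNFαDes-/- arrays, so the arrays were not on 1 scale at the bright end. The median change of the brightest 3639 genes, 13 of them collagen chains, was 0.27 as deposited. It was 0.02 after quantile normalization, a step that gives all arrays the same distribution of values. Values after this step are given beside those as deposited where it ends or adds a call or turns a direction. The log2 ratio of 3' to 5' control probe sets of Gapdh was -0.05 to 0.01 on the Des-/- arrays and 0.28 to 0.34 on the TNFαDes-/- arrays. That of Actb was 0.41 to 0.57 on the Des-/- arrays and 0.62 to 0.79 on the TNFαDes-/- arrays. The part of these ratios in the results was not tested. Tnf itself read 5.87 in Des-/- and 5.94 in TNFαDes-/- hearts, and its change of 0.07 ± 0.12 (SE) did not pass (limma adjusted p = 0.746). Des differed by 0.39 ± 0.10 (adjusted p = 0.0219), or 0.22 after quantile normalization (adjusted p = 0.199), and the files do not place these probe sets relative to the transgene or the deletion, so neither gene checks the labels.

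Of the 42 chains, 8 rose in TNFαDes-/- hearts and 1 fell (limma, Benjamini-Hochberg adjusted p under 0.05 over all genes). The 8 were Col4a1, Col4a2 and Col4a4 of basement membranes, Col15a1, Col6a3, the fibrillar Col1a2 and Col5a3, and the dim Col8a2, while Col9a1 fell. These 9 chains are 21.4% of the collagens, and 21.3% of all genes passed, so the collagens as a whole were called no more often than other genes. Among all genes 15.2% rose and 6.05% fell. The groups did not overlap for 14 chains (33.3%), against 38.0% of all genes. With Des-/- replicate 1 left out, 10 chains rose and 4 fell, where 32.0% of all genes passed. The median change was -0.01 over the 42 chains and 0.04 over all genes. By class it was 0.46 for the 6 basement membrane chains, 0.45 for types 15 and 18, 0.07 for type 6, -0.03 for the fibrillar chains and -0.06 for the others. After quantile normalization 6 chains rose and 5 fell, where 22.5% of all genes passed, and 17 chains (40.5%) had groups that did not overlap, against 39.6% of all genes. The class medians then were 0.21, 0.30, -0.12, -0.16 and -0.10 in the same order.

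**Figure D1:**
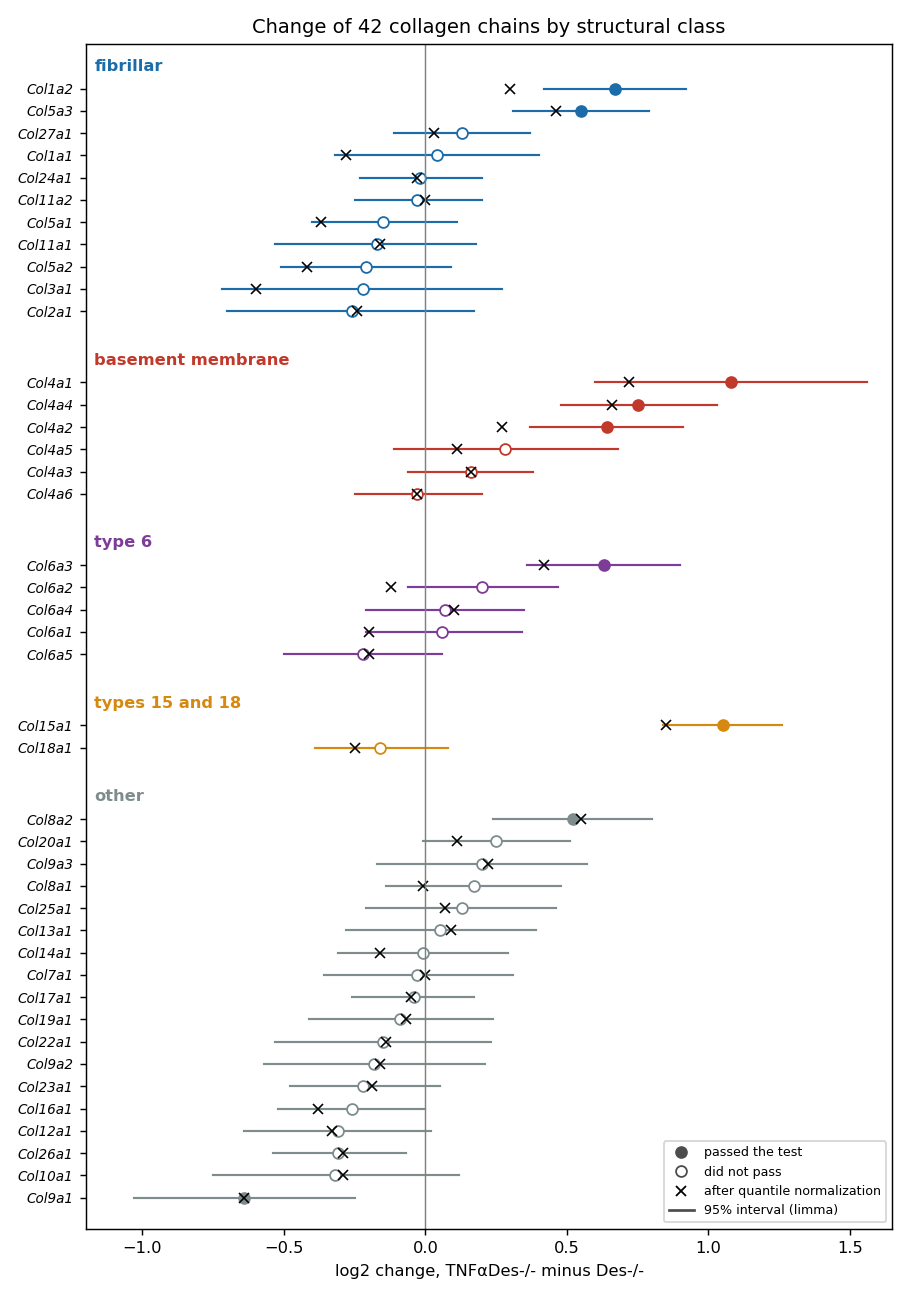
Log2 change of each of the 42 collagen chains, TNFαDes-/- minus Des-/- (3 arrays each), by structural class, with 95% limma intervals; filled points passed the test and crosses give the change after quantile normalization. The filled points are 8 rises, from 0.52 to 1.08, and the fall of Col9a1, and the crosses of the bright fibrillar chains lie to the left of their points.

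Levels set how much a change can be read. Over all 6 arrays 13 chains stayed below the array medians (5.02 to 5.08), and without detection calls they are not shown to be above background. They were Col2a1, Col11a1, Col11a2 and Col24a1 of the fibrillar class, Col6a4 and Col6a5, and Col9a2, Col10a1, Col13a1, Col17a1, Col19a1, Col23a1 and Col26a1. Among them are the chains that define cartilage collagens, Col2a1 and Col10a1, and the hemidesmosome collagen Col17a1. None of the 13 passed, and their changes ran from -0.32 (Col10a1) to 0.07 (Col6a4). Of the 27 chains whose mean lay above the median, 8 (29.6%) passed, against 30.1% of all genes with a mean above it.

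Col4a1 and Col4a2 encode the chains of the most widespread type 4 molecule, which contains both. Their genes lie head to head on mouse chromosome 8 and are transcribed in opposite directions. In the RefSeq annotation of GRCm38.p6 the start of Col4a1 (minus strand) is at 11312826 and that of Col4a2 (plus strand) at 11312805, so the transcripts start within the same 22 bases. This stretch, chr8:11312805-11312826, is shown on the plus strand because it links the only neighbouring collagen genes that both passed, and it starts at the first base of Col4a2 and ends at the first base of Col4a1.
Col4a1 and Col4a2 starts: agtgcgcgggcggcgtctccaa

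Col4a1 read 11.35, 10.54 and 10.51 on Des-/- replicates 1, 2 and 3 and 11.90, 11.92 and 11.82 on the TNFαDes-/- arrays. All TNFαDes-/- arrays were above all Des-/- arrays, and Des-/- replicate 1 stood well above the other Des-/- arrays. The change was 1.08 ± 0.21 (SE), or 2.11-fold (limma adjusted p = 0.00777), and 0.72 after quantile normalization (adjusted p = 0.00182). Measured against Des-/- replicate 1 alone it was 0.53 and did not pass (adjusted p = 0.0600). The second Col4a1 probe set gave a smaller difference, 0.43, from 10.78, 10.20 and 10.16 to 10.81, 10.83 and 10.77, and did not pass over all probe sets (adjusted p = 0.125), where 14.9% of probe sets did.

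Col4a2 read 11.02, 10.70 and 10.67 on the Des-/- arrays and 11.38, 11.52 and 11.40 on the TNFαDes-/- arrays. The groups did not overlap, and Des-/- replicate 1 was again the highest of its group. Its change of 0.64 ± 0.12 (1.56-fold, adjusted p = 0.00696) became 0.27 after quantile normalization and did not pass there (adjusted p = 0.0755). The 2 chains thus differed in the same direction, the larger change being that of Col4a1.

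The other type 4 chains form more specialised networks, with Col4a3, Col4a4 and Col4a5 in kidney glomerulus and Col4a5 and Col4a6 in smooth muscle. Col4a4 read 6.43, 6.70 and 6.70 in Des-/- and 7.28, 7.28 and 7.53 in TNFαDes-/- hearts. Here Des-/- replicate 1 was the lowest array, and the change of 0.75 ± 0.12 (1.69-fold, adjusted p = 0.00338) was 0.66 after quantile normalization (adjusted p = 0.00617). It rested on 1 of 3 probe sets, the others giving 0.20 and 0.24 without passing. Its head-to-head neighbour Col4a3 stood at 5.49 ± 0.07 (SD, n = 3) and 5.64 ± 0.08, a difference of 0.16 ± 0.10 that did not pass. Neither did Col4a5 (0.28 ± 0.17) nor Col4a6 (-0.03 ± 0.10).

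Col15a1, which encodes the chain of type 15 collagen found between basement membranes and the surrounding fibrils of muscle and capillaries, gave the lowest p of the 42 chains. It read 8.62, 8.47 and 8.49 in Des-/- and 9.59, 9.55 and 9.58 in TNFαDes-/- hearts. The arrays of each group lay close together, and the groups were far apart. The change was 1.05 ± 0.09 (2.07-fold, adjusted p = 0.000229), 0.85 after quantile normalization and 0.96 against Des-/- replicate 1 alone. Col18a1, its closest relative and the source of the vessel inhibitor endostatin, read 6.89, 7.12 and 6.92 and then 6.83, 6.75 and 6.88. These groups lay close together without overlapping, and the difference of -0.16 ± 0.10 did not pass (adjusted p = 0.335), nor did that of its other probe set (-0.23).

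**Figure D2:**
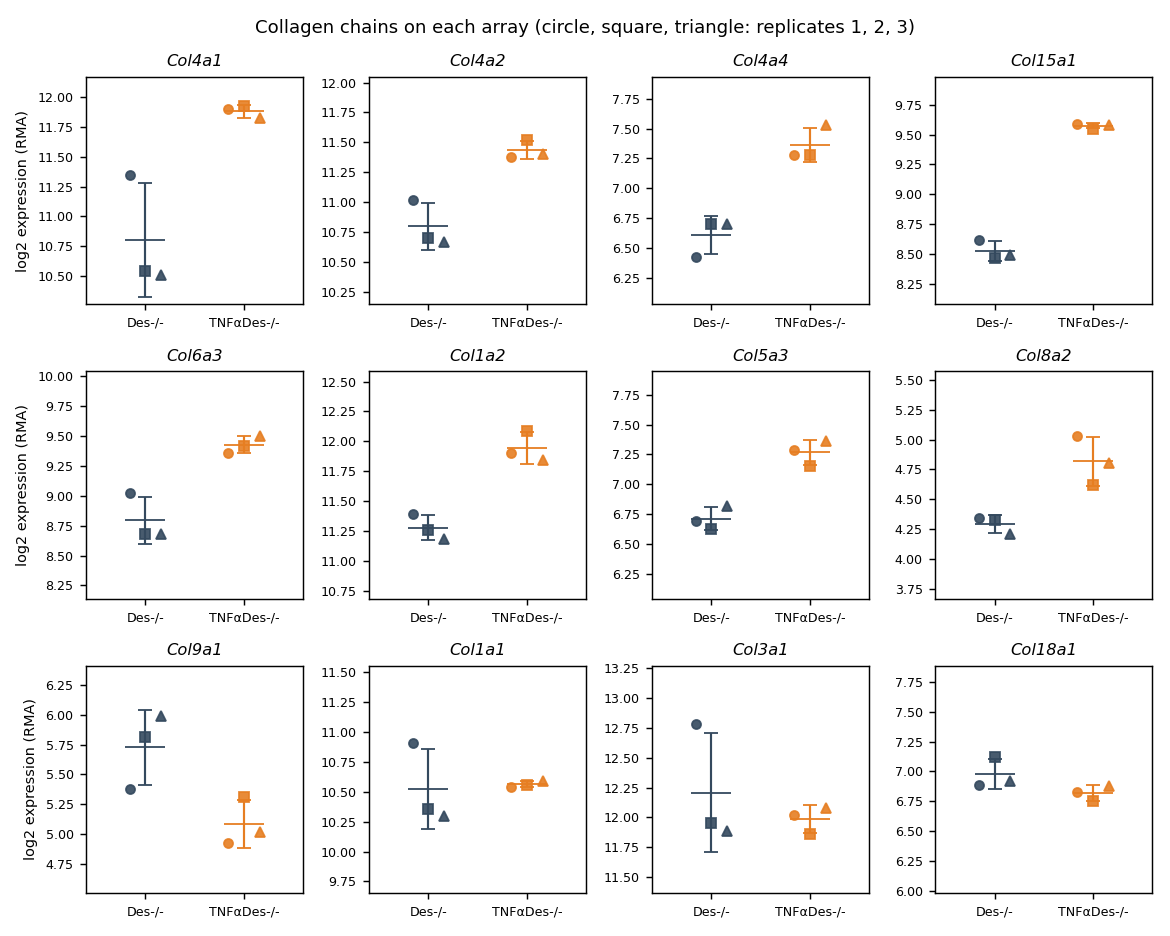
Log2 expression of 12 collagen chains on each array, with the mean and SD of each group of 3 arrays; every panel spans the same log2 range. The 3 TNFαDes-/- arrays lie above the 3 Des-/- arrays in the upper 8 panels and below them for Col9a1, while Col1a1 and Col3a1 overlap and Des-/- replicate 1 (circle) stands high in both.

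The fibrillar class held the brightest chain, Col3a1, and 2 of its 11 members rose. Col1a1 and Col1a2 encode the chains of type 1 collagen, the main fibril of scar and of the cardiac interstitium, and Col3a1 encodes type 3, its finer partner. Col1a2 read 11.39, 11.26 and 11.18 in Des-/- and 11.90, 12.09 and 11.84 in TNFαDes-/- hearts. Its groups were apart, with a change of 0.67 ± 0.11 (1.59-fold, adjusted p = 0.00387). After quantile normalization the change was 0.30 and did not pass (adjusted p = 0.136). Its second bright probe set read 9.42, 9.27 and 9.06 and then 9.31, 9.29 and 9.26, a difference of 0.03, so the probe sets of Col1a2 disagree.

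Col1a1 read 10.91, 10.36 and 10.30 in Des-/- and 10.54, 10.56 and 10.59 in TNFαDes-/- hearts. The TNFαDes-/- arrays fell between Des-/- replicate 1 and the other Des-/- arrays, and the difference of 0.04 ± 0.16 did not pass (adjusted p = 0.887). Col3a1, the brightest chain, read 12.78, 11.95 and 11.89 and then 12.02, 11.86 and 12.08, with the same high Des-/- replicate 1 and a difference of -0.22 ± 0.22 (adjusted p = 0.525). The interval of that difference, -0.72 to 0.27, does not settle its direction.

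Type 5 collagen is a minor component that sits inside type 1 fibrils and sets their width. Its Col5a1 and Col5a2 chains gave -0.15 ± 0.11 and -0.21 ± 0.13 and did not pass. Col5a3, a less abundant alternative chain, read 6.69, 6.63 and 6.82 in Des-/- and 7.29, 7.15 and 7.36 in TNFαDes-/- hearts. Every TNFαDes-/- array was higher, and the change of 0.55 ± 0.10 (1.47-fold, adjusted p = 0.00709) was 0.46 after quantile normalization (adjusted p = 0.00996). Its dimmer probe set, below the array medians, gave 0.06. Col27a1 (0.13 ± 0.11) did not pass.

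The calls of the abundant fibrillar chains depended on the scaling. After quantile normalization Col3a1 (-0.60, adjusted p = 0.00571), Col5a2 (-0.42, adjusted p = 0.00993), Col5a1 (-0.37, adjusted p = 0.0284) and Col1a1 (-0.28, adjusted p = 0.0320) were called lower. These calls rest on the brightest probe sets, and no other probe set of these chains passed there. The other Col1a1 probe set gave 0.29, in the opposite direction. The others gave -0.05 and -0.01 for Col5a1, -0.41 for Col3a1 and -0.22 for Col5a2. At the same scaling Col4a1, Col4a4, Col15a1, Col6a3, Col5a3 and Col8a2 were called higher. Cyclic loess, another way of aligning the arrays, called the same 6 higher and Col3a1, Col5a1 and Col5a2 lower, but not Col1a1; Col9a1 and the dim Col26a1 were also called lower there. As deposited, none of these 4 fibrillar chains passed.

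Differences between chains on the same array cancel a shift that both chains share, which holds best for chains of like brightness; for unequal pairs they still move with the scaling. The level of such a difference has no meaning across probe sets, but its change between groups does, and no test was made since the pairs were chosen with the values known. Col4a1 minus Col3a1 was -1.43, -1.41 and -1.38 on the Des-/- arrays and -0.11, 0.06 and -0.26 on the TNFαDes-/- arrays. On this measure Des-/- replicate 1 did not stand apart, and the change was 1.30 as deposited and 1.32 after quantile normalization. Col1a2 minus Col1a1, from partner chains of type 1, went from 0.48, 0.90 and 0.87 to 1.36, 1.52 and 1.25, a change of 0.63 that rests on the bright probe set of Col1a2. Col5a3 minus Col5a1 changed by 0.70 (0.84 after quantile normalization) and Col4a4 minus Col4a3 by 0.59 (0.50). Col15a1 minus Col18a1 changed by 1.21 (1.10 after quantile normalization). By contrast, Col5a1 minus Col5a2 changed by 0.06, and Col5a2 minus Col3a1, from genes that are direct neighbours on chromosome 1, by 0.01 (0.18 after quantile normalization, where the groups no longer overlapped).

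**Figure D3:**
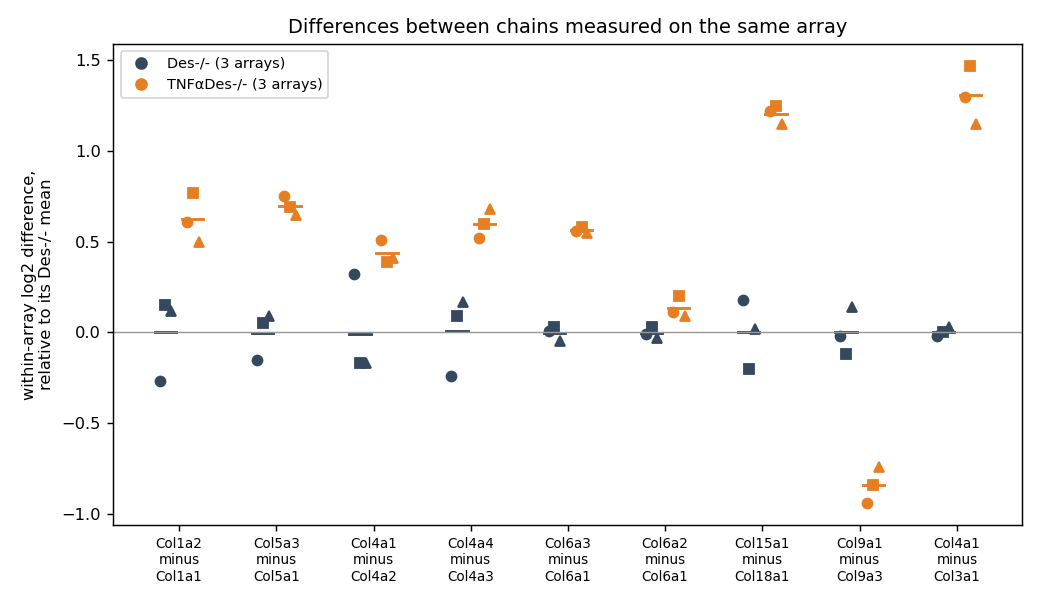
Within-array log2 difference between 2 collagen chains, set to 0 at its Des-/- mean, for 9 pairs; circles, squares and triangles are replicates 1, 2 and 3 and bars are group means. The groups do not overlap in any of the 9 pairs, but these were picked with the values known, so this is no result about collagen pairs. Pairs not shown, such as Col5a1 against Col5a2 and Col5a2 against Col3a1, overlap as deposited. The largest changes shown are those of Col4a1 against Col3a1 (1.30) and Col15a1 against Col18a1 (1.21).

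The promoters of Col1a2 and Col3a1 are shown because these fibrillar chains changed by unequal amounts. Each is the 250 bases before the RefSeq start in GRCm38.p6, 5′ to 3′ on the plus strand, from chr6:4505368-4505617 for Col1a2 and chr1:45311288-45311537 for Col3a1. Capitals mark matches, on either strand, to the TATA box (TATAAA), the CCAAT box (CCAAT), the GC box (GGGCGG), the AP-1 site (TGANTCA) or the NF-κB consensus; no matches overlapped.
Col1a2: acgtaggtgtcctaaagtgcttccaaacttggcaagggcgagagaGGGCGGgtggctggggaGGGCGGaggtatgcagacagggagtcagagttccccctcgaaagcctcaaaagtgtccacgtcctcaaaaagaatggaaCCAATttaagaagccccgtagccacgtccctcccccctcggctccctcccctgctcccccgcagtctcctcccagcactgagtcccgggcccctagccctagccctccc
Col3a1: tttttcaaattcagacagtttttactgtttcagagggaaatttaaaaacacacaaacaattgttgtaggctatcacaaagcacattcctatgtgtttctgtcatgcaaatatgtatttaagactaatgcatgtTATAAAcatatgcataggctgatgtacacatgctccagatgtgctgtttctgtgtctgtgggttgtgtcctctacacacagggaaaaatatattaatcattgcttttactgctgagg

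The Col1a2 window held 2 GC boxes and 1 CCAAT box, and the Col3a1 window held 1 TATA box. Motifs were counted on both strands in the 250 bases before each start. The GGGCGG in the stretch between the Col4a1 and Col4a2 starts lies after both starts and so outside these windows. Over the 32851 windows of the table, 32.7% held a GC box, 33.8% a CCAAT box, 12.4% a TATA box, 6.75% an AP-1 site and 7.25% the NF-κB consensus. A window was at hand for 33 of the 42 chains, and among these 20 held a GC box, 13 a CCAAT box, 6 the NF-κB consensus, 5 a TATA box and 1, Col6a1, an AP-1 site. The 33 chains had 36 windows, and a chain was counted if any of its windows held the motif. These counts are therefore per chain, while the shares above are per window. The windows with the NF-κB consensus belong to Col4a2, Col6a2, Col6a4, Col9a1, Col9a2 and Col27a1, of which Col4a2 rose and Col9a1 fell. A match is a description of the letters and not a site in use.

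Type 6 collagen is assembled from Col6a1, Col6a2 and Col6a3, and it anchors muscle cells to their surroundings. Col6a3 read 9.02, 8.68 and 8.68 in Des-/- and 9.36, 9.42 and 9.50 in TNFαDes-/- hearts. Every TNFαDes-/- array was higher, with a change of 0.63 ± 0.12 (1.55-fold, adjusted p = 0.00748), and 0.42 after quantile normalization (adjusted p = 0.00738). Its partners did not pass. Col6a2, the brightest of the class, read 10.52, 10.20 and 10.22 and then 10.42, 10.55 and 10.56, overlapping groups with a difference of 0.20 ± 0.12 (adjusted p = 0.264). Col6a1 gave 0.06 ± 0.12. After quantile normalization both signs turned, to -0.12 for Col6a2 and -0.20 for Col6a1, without passing. Col6a3 minus Col6a1 was -1.21, -1.19 and -1.27 in Des-/- and -0.66, -0.64 and -0.67 in TNFαDes-/- hearts, so the arrays of each group lay close together and the difference changed by 0.57. Col6a2 minus Col6a1, from genes that are neighbours on chromosome 10, changed by 0.14.

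In the remaining classes few chains were bright, and 16 of 18 did not pass. Col8a1 and Col8a2 encode the chains of type 8, a short-chain collagen of vessel walls. Col8a2 read 4.34, 4.33 and 4.21 in Des-/- and 5.03, 4.62 and 4.80 in TNFαDes-/- hearts. The groups did not overlap (0.52 ± 0.12, adjusted p = 0.0174), but its Des-/- level is below the array medians and not shown to be above background, so no fold is given. The call was lost without Des-/- replicate 2 (0.54, adjusted p = 0.0527), Des-/- replicate 3 (0.48), TNFαDes-/- replicate 1 (0.42) or TNFαDes-/- replicate 3 (0.53). Col8a1, the brightest of these chains, read 8.98, 8.55 and 8.49 and then 8.89, 8.83 and 8.82. Des-/- replicate 1 was its highest array, and the difference of 0.17 ± 0.14 did not pass (adjusted p = 0.429; -0.01 after quantile normalization).

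Col9a1, a chain of the fibril-associated type 9 collagen of cartilage, read 5.38, 5.81 and 5.99 in Des-/- and 4.93, 5.31 and 5.02 in TNFαDes-/- hearts. The groups were next to each other, with Des-/- replicate 1 at 5.38 beside TNFαDes-/- replicate 2 at 5.31. Its change of -0.64 ± 0.17 passed (adjusted p = 0.0298) on 1 probe set, while the other, below the array medians, gave 0.19. The call ended without Des-/- replicate 2 (-0.60) or 3 (-0.51) and without TNFαDes-/- replicate 1 (-0.56) or 3 (-0.60). The fibril-associated Col12a1 (-0.31 ± 0.15) and Col14a1 (-0.01 ± 0.13), which link fibrils to each other, and Col16a1 (-0.26 ± 0.11) did not pass, nor did Col20a1 (0.25 ± 0.11), Col22a1 (-0.15 ± 0.17), Col25a1 (0.13 ± 0.15), Col9a3 (0.20 ± 0.16) or the anchoring fibril chain Col7a1 (-0.03 ± 0.15).

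Probe sets of a gene gave a check within the arrays. The 42 chains had 82 probe sets, and 27 chains had more than 1. Of these 27, 17 had all probe sets on the same side of 0. Col4a2, Col15a1, Col6a3 and Col8a2, which passed, have a single probe set. The other 5 chains that passed (Col4a1, Col4a4, Col1a2, Col5a3 and Col9a1) each had a probe set that did not. Of the 82 probe sets 9 passed over all probe sets, where 14.9% did. The 9 belonged to different chains, so no call was repeated by a second probe set. Calls in opposite directions within a chain could therefore not be seen.

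Collagen chains are modified, folded and trimmed by a set of dedicated proteins before they form fibrils. Of 21 measured genes of hydroxylation and folding 11 rose and 0 fell, with a median change of 0.47, where 15.2% of all genes rose. After quantile normalization 8 rose and 0 fell (median 0.23), where 12.0% of all genes rose. Brighter genes rose more often, and just 1 of the 21 stayed below the array medians on all arrays. Of 11746 genes with a mean above the median, 2637 rose as deposited and 2007 after quantile normalization. Of the brightest 3639 genes, 1137 and 721 did. Serpinh1, the collagen-specific chaperone of the endoplasmic reticulum, read 10.68, 9.72 and 9.69 in Des-/- and 11.24, 11.11 and 11.21 in TNFαDes-/- hearts. Des-/- replicate 1 was high here too, and the change of 1.16 ± 0.24 (adjusted p = 0.0105) was 0.84 after quantile normalization. P4hb, the protein disulfide isomerase subunit of prolyl 4-hydroxylase, rose by 1.07 ± 0.13 (adjusted p = 0.000873), the prolyl isomerase Fkbp14 by 1.08 ± 0.15 (adjusted p = 0.00171) and the prolyl 3-hydroxylase family gene P3h3 by 0.95 ± 0.16. P4ha1, the catalytic subunit of prolyl 4-hydroxylase, rose by 0.60 ± 0.12 (adjusted p = 0.00946), although its dimmer probe set showed a difference of 0.00. Without Des-/- replicate 3 or TNFαDes-/- replicate 3, 7 genes of the list rose, and 2 did against Des-/- replicate 1 alone.

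Of 11 measured genes of propeptide removal and crosslinking, 2 rose and 0 fell (median 0.09), and the same counts were found after quantile normalization. Among all genes 15.2% rose as deposited and 12.0% after quantile normalization, so the list as a whole did not stand out. Pcolce, which helps the protease that trims the ends of procollagen, read 10.35, 9.98 and 9.96 in Des-/- and 11.22, 11.08 and 11.24 in TNFαDes-/- hearts. The groups were well apart (1.09 ± 0.13, adjusted p = 0.000842), and its other probe set rose as well (1.34). The crosslinking transglutaminase Tgm2 rose by 1.02 ± 0.14 (adjusted p = 0.00140). All probe sets of Pcolce and Tgm2 have names ending in _a_at or _x_at, which mark probes that can match several transcripts. The same holds for Serpinh1 and P4hb, and for the brightest probe sets of the called chains Col1a2 and Col9a1. Lox, which crosslinks collagen and elastin, gave 0.23 ± 0.13 and did not pass.

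Proteins that coat or join collagen fibrils were split, with 4 of 17 higher and 4 lower (median 0.06), where 15.2% of all genes rose and 6.05% fell. After quantile normalization 3 were higher and 7 lower (median -0.18), where 12.0% of all genes rose and 10.4% fell. Dcn, a small proteoglycan that binds type 1 fibrils, rose by 0.93 ± 0.15 (adjusted p = 0.00307, on its brighter probe set; the dim one gave -0.04) and Tgfbi, an adhesion protein of the matrix, by 0.77 ± 0.12. Fn1, the fibronectin scaffold of new matrix, read 10.42, 10.23 and 10.15 in Des-/- and 8.84, 8.89 and 8.94 in TNFαDes-/- hearts and fell by 1.38 on the log2 scale (adjusted p = 0.000107), and Thbs2, a thrombospondin, fell by 1.07. Postn, the matricellular protein periostin, read 11.12, 10.43 and 10.46 in Des-/- and 9.64, 9.54 and 9.82 in TNFαDes-/- hearts and fell too (limma adjusted p = 0.00658). Sparc, a collagen-binding protein of the matrix, rose by 0.46 ± 0.10 as deposited and gave 0.09 after quantile normalization, which did not pass (adjusted p = 0.637).

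**Figure D4:**
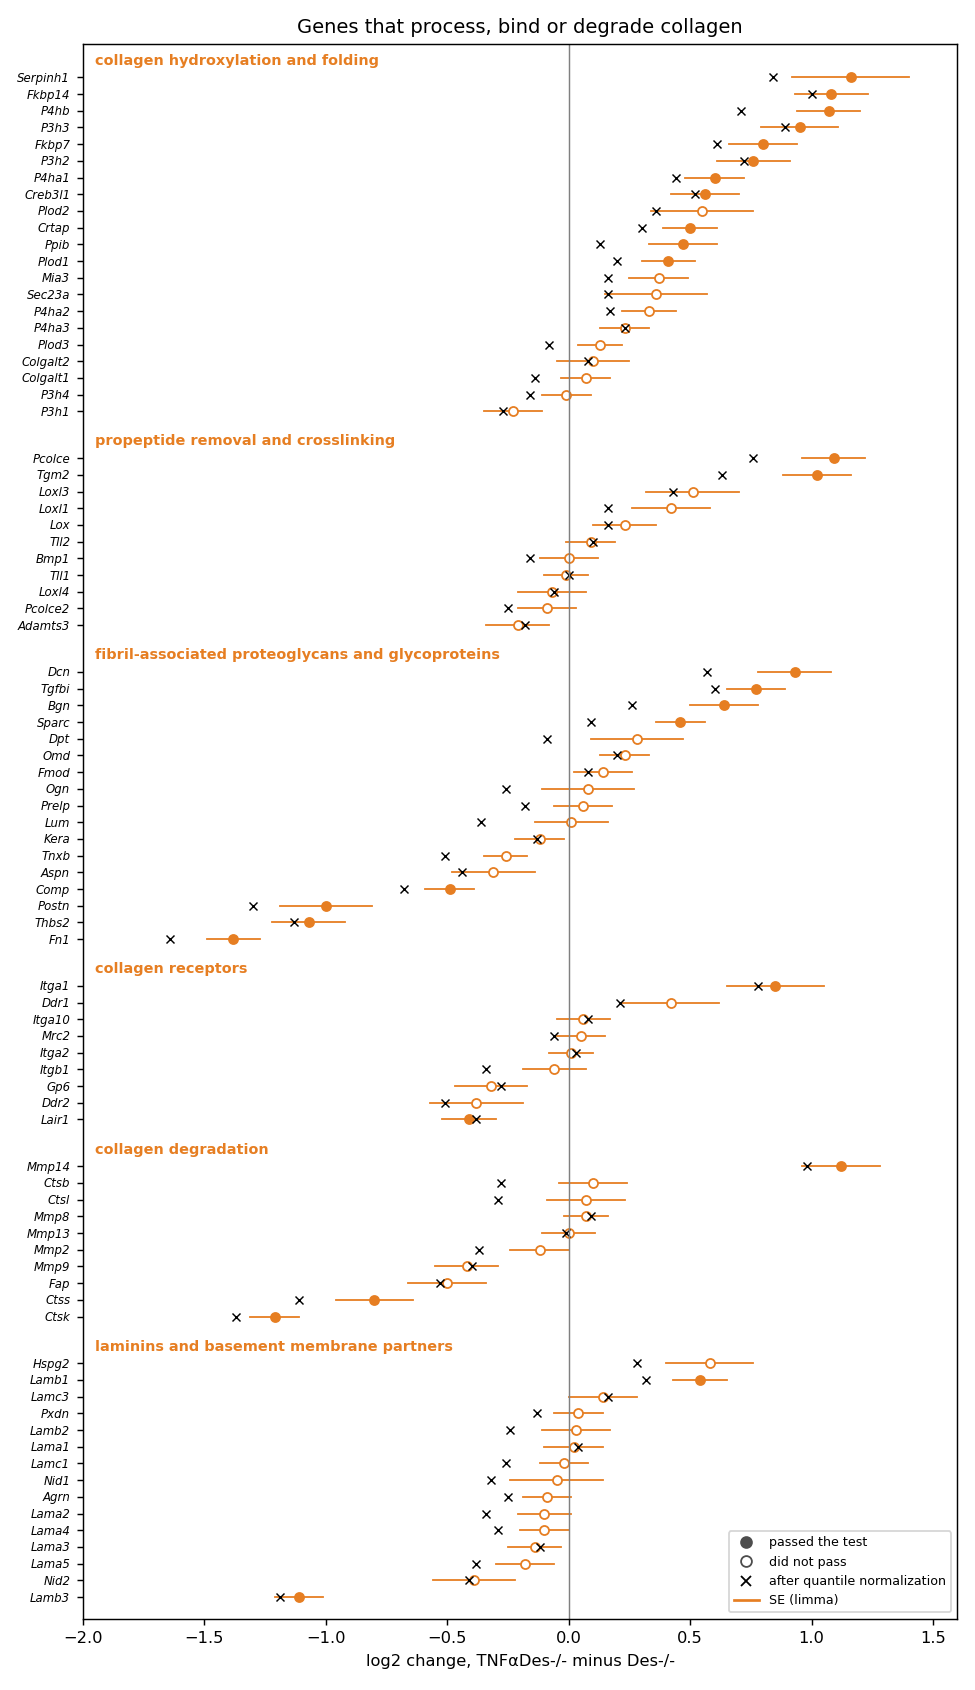
Log2 change, TNFαDes-/- minus Des-/-, of the measured genes of 6 lists that process, accompany, bind or degrade collagen, with the SE; filled points passed the test and crosses give the change after quantile normalization. In the hydroxylation and folding list 11 of 21 points are filled and all of them lie to the right of 0, while the fibril-associated list has 4 filled points on each side.

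Of 9 receptor genes the collagen-binding integrin Itga1 rose (0.85 ± 0.20, adjusted p = 0.0189; its other probe set gave -0.62 without passing) and the inhibitory leukocyte receptor Lair1, below the array medians, fell (-0.41 ± 0.11); the collagen receptor kinase Ddr2 gave -0.38 ± 0.19 and did not pass. After quantile normalization Ddr2 (-0.51, adjusted p = 0.0427) and the integrin subunit Itgb1 (-0.34, adjusted p = 0.0335) were called lower too, which made 3 of 9. Of 10 degradation genes, the membrane collagenase Mmp14 rose by 1.12 ± 0.16 and the collagen-cleaving cathepsin Ctsk (-1.21 ± 0.10) and the cathepsin Ctss (-0.80 ± 0.16) fell, and 7 fell after quantile normalization. The added calls were Ctsb and Ctsl, which turned from 0.10 and 0.07 to -0.28 and -0.29, and Mmp2 (-0.37), Mmp9 (-0.40) and Fap (-0.53). Among all genes 15.2% rose and 6.05% fell as deposited, and 12.0% and 10.4% after quantile normalization. Of 15 laminins and other basement membrane partners, Lamb1 rose (0.54 ± 0.11) and Lamb3 fell (-1.11 ± 0.10), with a median of -0.05, beside 0.46 for the type 4 chains. After quantile normalization 1 rose and 2 fell, the second being the laminin chain Lama4 (-0.29), with a median of -0.25 beside 0.21 for type 4. The probe sets of Lamb1 disagree: a second one fell by 0.63 (adjusted p = 0.0115 over all probe sets). Dimmer probe sets of Lama4 (-0.97), Nid1 (-0.65) and Lamc1 (-0.62) also passed as lower over all probe sets, though these genes were not called as deposited. The dimmest Nid1 probe set passed as higher (0.43).

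Markers of the heart's cell types were read beside these results, and their part in them was not tested. As deposited 15.2% of all genes rose and 6.05% fell, and after quantile normalization 12.0% and 10.4%. Of 10 endothelial markers 0 rose and 5 fell (7 fell after quantile normalization). The mean log2 level of the list was 8.76 to 9.02 on the Des-/- arrays and 8.47 to 8.50 on the TNFαDes-/- arrays. Of 10 markers of smooth muscle and pericytes 0 rose and 3 fell, and 7 fell after quantile normalization (levels 8.63 to 9.10 against 8.47 to 8.54). Of 12 fibroblast markers 3 rose and 2 fell, or 2 and 4 after quantile normalization, and their mean levels overlapped (9.91 to 10.35 against 10.18 to 10.24). Of 11 markers of activated fibroblasts 3 rose and 5 fell, or 3 and 6 after quantile normalization (8.26 to 8.50 against 8.23 to 8.38). Of 9 macrophage markers 6 rose and 1 fell at both scalings (8.83 to 9.15 against 9.39 to 9.45). The cardiomyocyte list, which checks the labelled tissue, was bright on all arrays (13.64 to 14.29 against 14.24 to 14.28), with 1 of 10 higher and 0 lower, or 1 and 2 after quantile normalization. These counts use the brightest probe set of each gene. The dimmer Myh6 probe set read 11.49 in Des-/- and 8.78 in TNFαDes-/- hearts (-2.71, limma adjusted p = 0.000944 over all probe sets). Dimmer Atp2a2 probe sets passed as higher (0.55 and 0.67). Dimmer probe sets of Rgs5 (-0.81 to -1.97), Abcc9 (-0.84 and -0.78) and Pdgfrb (-0.74) passed as lower over all probe sets. The brightest ones of these genes gave -0.02, -0.37 and -0.6 without passing as deposited. The dimmer Cspg4 probe set gave 0.39 without passing. For the fibroblast marker Pdgfra the brightest probe set gave 0.2, another passed as lower (-0.73) and the dimmest gave 0.49 without passing.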

How the data were processed

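Gene expression was measured in heart RNA on 6 one-colour Affymetrix arrays. The authors deposited log2 values, made with RMA per the submitters' processing notes. No version was stated, nor whether a quantile step was run. Probe sets with exactly 1 gene symbol in the platform annotation (34945 of 45101) were used, and each of 18193 genes was represented by its brightest probe set, with no filter. The 2 genotypes were tested against each other by limma's moderated linear model (version 3.58.1, R 4.3.3), and p-values were adjusted by Benjamini-Hochberg across the 18193 genes, called at 0.05. The procedure was tested on simulated data. No test was run on lists. The members, companion lists, markers and rule for named genes (all chains; of each list up to 4 called genes with the largest change, plus fixed ones) were chosen with earlier results of these data known. Other genes named from the lists were chosen after their values were seen. Sequences are from RefSeq tables of GRCm38.p6; all 42 symbols matched. The alternatives tried were scaling, variance model, array weights, a replicate block, a dim filter, probe set choice and arrays left out. The number of arrays limits the precision.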

Additional observations from a re-analysis of the deposited data

How the results depend on the processing

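Of the 9 chains past the test, Col15a1 and Col4a4 passed under all 18 alternative settings, and Col4a1, Col5a3 and Col6a3 under all except Des-/- replicates 2 and 3 left out together, a setting added with the data known and with 1 Des-/- array left, assumed to vary like the others. There 2 chains (Col15a1 and Col4a4) rose and Col3a1 fell (-0.80, limma adjusted p = 0.0276), where 8.72% of all genes passed, and the medians were -0.09 for fibrillar, 0.25 for basement membrane and 0.00 for type 6 chains. The count of lower chains was 5 with quantile normalization or cyclic loess, 7 with quantile normalization and Des-/- replicate 1 left out, 2 with an intensity trend, 7 with array weights (11 rose there, and 46.2% of all genes passed), and 0 when probe sets of a gene were averaged (Col9a1 -0.23) or when those named _a_at, _s_at or _x_at were left out (Col9a1 0.19, on its other probe set). Leaving out 1 array gave 7 to 10 higher and 0 to 4 lower chains, with medians of -0.04 to 0.02 for all, -0.07 to -0.02 for fibrillar, 0.39 to 0.54 for basement membrane, 0.05 to 0.17 for type 6, 0.42 to 0.47 for type 15 and 18 and -0.19 to -0.02 for other chains. Col1a1 turned to -0.28 with quantile normalization and to -0.26 when Des-/- replicate 1 was also left out. Medians were -0.16 (fibrillar), 0.24 (basement membrane), -0.10 (type 6) and 0.29 (types 15 and 18) with cyclic loess, -0.18, 0.20, -0.17 and 0.23 with quantile normalization and Des-/- replicate 1 left out, and -0.16, 0.21, -0.12 and 0.30 with quantile normalization alone. The median of type 6 chains was 0.14 with array weights, that of basement membrane chains 0.31 with averaged probe sets, and that of all chains 0.05 without the _a_at, _s_at and _x_at probe sets. With the dim filter the medians of the chains left were 0.13 (all), 0.04 (fibrillar) and 0.20 (type 6), since fewer chains entered. The replicate numbers did not pair the arrays (correlations of the deviations 0.248, 0.313 and -0.299), and a fit with the replicate block called 8 chains higher and 1 lower. The cause of the other shifts was not tested.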

Other observations

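Markers of cell types that could add collagen RNA from outside the muscle wall were also measured. The lists are short, and their counts stand beside 15.2% of all genes that rose and 6.05% that fell as deposited. The 7 cartilage markers were dim, with a mean log2 level of 4.51 to 4.62 on the Des-/- arrays and 4.59 to 4.74 on the TNFαDes-/- arrays, and 1 of them, Cnmd (chondromodulin, also known from heart valves), rose by 1.25 ± 0.11 (limma adjusted p = 0.000187). Of 5 mesothelial and epicardial markers 0 rose and 2 fell, Krt19 and Upk3b (6.18 to 6.39 against 5.73 to 5.97). Of 3 Schwann cell markers 1, Cdh19, fell (5.97 to 6.21 against 5.47 to 5.69), and of 3 erythrocyte markers Alas2 fell (-1.75 ± 0.19). Of 5 markers of keratinised epithelium 0 passed (4.98 to 5.03 against 4.86 to 4.94), also 0 at an unadjusted p under 0.05. The counts use the brightest probe set of each gene. Dimmer probe sets of the keratin Krt14 (-0.46) and the Schwann cell marker Mbp (-0.44) passed as lower over all probe sets. Which of these genes were named was decided after their values were seen.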
